A study of Mus musculus with 8 samples.

Results

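Glycolysis and hypoxia response genes were followed in mouse macrophages: 36 genes, chosen by symbol, that encode hexose and lactate transporters, the enzymes of glycolysis, the enzymes that decide the fate of pyruvate, the oxygen sensors and a set of classical hypoxia-induced genes. Each of the 36 symbols was found as an Ensembl gene identifier among the 36806 gene lines of every table. RNA was measured by poly(A) RNA-seq in primary bone marrow-derived macrophages of C57BL/6 mice, grown in high-glucose medium with L929-conditioned medium and used on the seventh day of differentiation. 1 library came from untreated cells and 7 from cells given a single stimulus for 4 h. IL4, TNFa and IL1b, cytokines of alternative activation and of inflammation, were each used at 10 ng/ml. IFNg, the interferon of classical activation, was used at 100 ng/ml, and TGFb1, a cytokine that restrains inflammation, at 1 ng/ml. The other 2 stimuli were microbial: the lipopeptide MALP2 at 1 ng/ml and CpG DNA at 100 nM. MALP2 is a ligand of Toll-like receptors at the cell surface and CpG DNA of an endosomal Toll-like receptor. Each group was 1 library, so no difference below has a replicate check and no p-value was computed. How many animals or cultures a library represents is not given in the sources used here.

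Glycolysis turns glucose into pyruvate in the cytosol, and lactate dehydrogenase then turns pyruvate into lactate, which leaves the cell through monocarboxylate transporters. Macrophages activated by microbial products or IFNg are known to raise glycolysis even when oxygen is present, whereas IL4-activated macrophages are known to rely more on oxidative metabolism. The transcription factor HIF-1 controls many of these genes: its subunit Hif1a is made continuously and, in oxygen, is hydroxylated by the Egln prolyl hydroxylases and degraded. The mRNA levels below measure neither Hif1a protein nor glucose use.

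Levels are given as FPKM, fragments scaled to transcript length and to a measure of library size, so levels of different genes can be set side by side per length. Each stimulus came with its own table of the stimulated and the untreated library, and the untreated columns of the 7 tables differed by 1 factor per table, at most 1.1-fold. Levels from different stimuli were joined through that factor, whereas each log2 change compares the 2 columns of a single table, as log2 of (stimulated FPKM + 1) over (untreated FPKM + 1). A change is called 2-fold where this value is at least 1 in size, the gene is at 1 FPKM or more in either library and the authors' status is OK in both. Where a range called bounds is given, it is the authors' confidence interval for the FPKM of 1 library in its own table. Such bounds carry counting and model error, not the spread between cultures.

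The tables hold no read counts. Between 97 and 127 genes per comparison had an upper bound of 3 times their value in both libraries, the bound of a single read, and in those genes the FPKM worth of 1 read, relative to untreated, was 2.04 for IFNg, 1.44 for MALP2 and 1.04 to 1.24 for the other 5. The IFNg library was thus the shallowest relative to the untreated one. Among markers of other cell types, the 7 stromal genes summed to 87.9 FPKM after IFNg, where the untreated sum was 41.6 and that of the other 6 libraries 41.1 to 48.4, and the 9 neutrophil genes to 154 FPKM (IL4) to 417 FPKM (IFNg). The 6 T and NK cell genes summed to 5.82 (MALP2) to 22.1 FPKM (IFNg). The 4 B cell genes and the 4 erythroid genes found stayed below 1 FPKM in every library. Among macrophage markers Csf1r was at 1045 to 1543 FPKM and Cd68 at 1486 to 2171 FPKM in all 8 libraries, whereas Lyz2 was listed at 0 in 5 of them and at 11380 FPKM or more in the other 3. In bulk libraries, fewer cells of a type and less RNA per cell cannot be told apart.

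The promoter stretches of 7 genes are shown because 5 of these genes, Slc2a1, Hk2, Hif1a, Ankrd37 and P4ha1, were at least 2-fold higher in every one of the 7 stimulated libraries, and the other 2, Slc16a3 and Ldha, encode the last steps of lactate production and export. HIF-1 is known to bind short elements with ACGTG or GCGTG at their core. As a check, bases just after the annotated start of transcription were searched for in transcripts of the same gene. They were found for every gene shown except Hif1a and Ldha, whose strand and start therefore rest on the annotation alone. The sequences are those of RefSeq on GRCm38.p6, a build other than that of the expression tables. Each reads 5′ to 3′ on the gene's own strand and ends at or before the annotated start of transcription, and capitals mark ACGTG or GCGTG on either strand (read as CACGT or CACGC on the other strand), which overlap where CACGTG is written.
Slc2a1, chr4:119108664-119108733, plus strand: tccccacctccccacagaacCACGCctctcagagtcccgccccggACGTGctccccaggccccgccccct
Hk2, chr6:82774482-82774700, minus strand: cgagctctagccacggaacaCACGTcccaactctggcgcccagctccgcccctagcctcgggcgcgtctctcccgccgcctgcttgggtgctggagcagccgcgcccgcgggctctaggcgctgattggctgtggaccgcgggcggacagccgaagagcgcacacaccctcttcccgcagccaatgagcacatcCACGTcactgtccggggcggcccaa
Hif1a, chr12:73907712-73907821, plus strand: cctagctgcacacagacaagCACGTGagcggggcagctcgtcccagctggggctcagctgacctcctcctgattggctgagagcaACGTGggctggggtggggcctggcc
Ankrd37, chr8:45999851-46000100, minus strand: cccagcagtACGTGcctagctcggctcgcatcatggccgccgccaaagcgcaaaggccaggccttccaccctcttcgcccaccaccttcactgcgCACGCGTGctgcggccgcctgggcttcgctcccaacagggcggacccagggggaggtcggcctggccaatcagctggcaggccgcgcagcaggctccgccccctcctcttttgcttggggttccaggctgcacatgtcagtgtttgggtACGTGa
P4ha1, chr10:59323113-59323295, plus strand: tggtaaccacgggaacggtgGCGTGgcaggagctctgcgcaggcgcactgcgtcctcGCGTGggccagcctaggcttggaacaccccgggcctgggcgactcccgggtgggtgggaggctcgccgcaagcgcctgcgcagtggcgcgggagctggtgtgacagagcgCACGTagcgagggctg
Slc16a3, chr11:120949020-120949066, plus strand: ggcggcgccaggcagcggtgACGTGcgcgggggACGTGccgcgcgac
Ldha, chr7:46845639-46845794, plus strand: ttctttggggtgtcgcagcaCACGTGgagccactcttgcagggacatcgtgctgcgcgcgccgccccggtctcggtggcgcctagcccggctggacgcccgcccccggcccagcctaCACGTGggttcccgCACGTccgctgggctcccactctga
In windows from 250 bases before to 50 after an annotated start, ACGTG stood on either strand in 24 of the 34 genes that have a window (70.6%), against 21.8% of 27025 genes with a RefSeq window. GCGTG was present in 24 of 34 (70.6%, against 35.2%), and either motif in 32 of 34 (94.1%, against 46.7%). Hif1a, the gene of the factor itself, held 3 matches to ACGTG, and the window of the first start of Ldha held 5, each CACGTG giving 1 match per strand. Counted per window, since some genes have several starts, either motif was in 83.3% of 48 windows against 43.8% of 32851. A consensus for NF-kappa B, searched as a sequence pattern on both strands, was found in a window of Vegfa. It was found in no other of the 34 genes (2.94%, against 5.14%). These matches describe letters in a window, not sites in use. The list holds classical hypoxia-induced genes by choice, and the genes compared with it were not matched for expression or base content. The shares therefore describe the list and were not tested. No window was at hand for Slc2a3 and Ndrg1.

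Compared with the untreated library, more of the genes were at least 2-fold higher after MALP2, CpG, IFNg and TNFa than after IL1b, TGFb1 and IL4, and few were lower after any stimulus. MALP2 had 22 of 35 measured genes higher and 1 lower, where 9.53% of all genes were higher and 11.7% lower. CpG had 21 of 35 higher and 2 lower (all genes 9.43% and 11.2%), and IFNg 20 of 34 higher and 2 lower (10.7% and 12.7%). For TNFa 18 of 34 were higher and 2 lower (8.92% and 10.4%), for IL1b 11 and 2 (7.29% and 8.57%), for TGFb1 9 and 3 (7.15% and 9.15%), and for IL4 6 and 3 (9.86% and 11.9%).

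The median log2 change of the measured genes gave the same order: 1.41 for MALP2, 1.31 for CpG, 1.08 for IFNg, 1.05 for TNFa, 0.62 for IL1b, 0.47 for TGFb1 and 0.14 for IL4. All genes together had medians of -0.12 (CpG) to -0.08 (TGFb1). The 7 comparisons share 1 untreated library, so any error in it enters all of them. Of the 36 genes, Vegfa had a failed estimate in the untreated library and was left out of every count, and Adm reached 1 FPKM only in the MALP2 and CpG libraries. Adm therefore enters the counts only where it was high. Egln3 was at 0.709 FPKM untreated and passed 1 FPKM only through the stimulated libraries, so it could not count as lower.

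**Figure D1:**
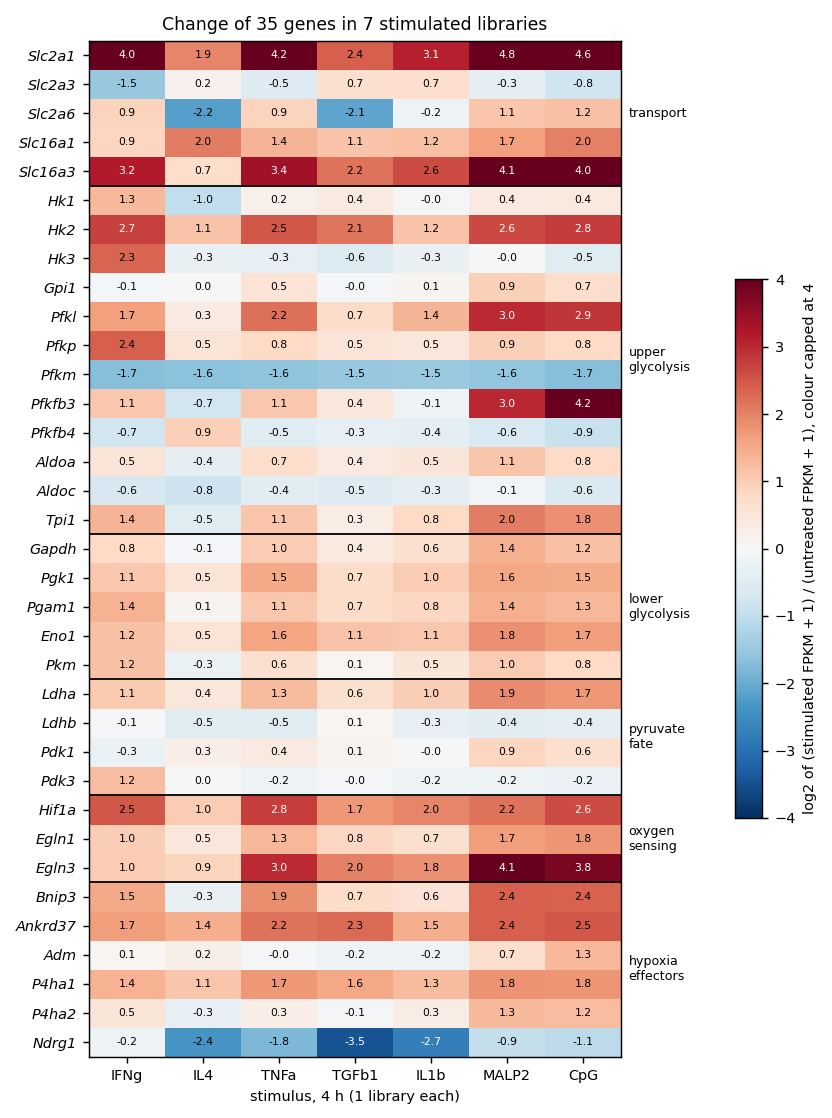
Colour and number give the log2 change of (FPKM + 1) in each stimulated library over the untreated library of the same table, for 35 genes (rows, grouped by role) and 7 stimuli (columns, 1 library each); Vegfa is left out, and Adm is below 1 FPKM in both libraries of 5 columns. Slc2a1, Hk2, Hif1a, Ankrd37 and P4ha1 are above 1 in all 7 columns, Pfkm is below -1 in all 7, and Hk3 and Pfkp pass 1 only in the IFNg column.

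In the authors' deposited tables, 89 of the higher changes at 2-fold carried their call of significance and 18 did not. By stimulus the called and higher genes numbered 16 for IFNg (all genes 7.56%), 5 for IL4 (6.79%), 14 for TNFa (6.4%), 8 for TGFb1 (5.09%), 10 for IL1b (5.33%), 18 for MALP2 (6.34%) and 18 for CpG (6.6%). Pgam1, Pkm, Ldha, Gapdh and Aldoa made up 11 of those without a call. Pgam1, the phosphoglycerate mutase of lower glycolysis, was 2-fold higher in 4 comparisons and called in none of the authors' deposited tables. After MALP2 it was at 347 FPKM (122 to 572) against 129 FPKM (48.4 to 209) untreated, with bounds that overlap.

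Taken over all 7 comparisons, 5 of 34 genes were 2-fold higher in each (14.7%, against 1.58% of 12286 genes measured in all 7). Another 11 passed 2-fold in 4 to 6 comparisons, which makes 16 of 34 (47.1%, against 6.61%). Only Pfkm was lower in all 7 (2.94%, against 3.04%), a share like that of all genes, and 5 genes, Gpi1, Pfkfb4, Aldoc, Ldhb and Pdk1, passed 2-fold in neither direction (14.7%, against 59.2%). The MALP2 library held the highest level of 16 of 35 genes (45.7%, against 12.6% of all genes) and CpG of 6 (17.1%, against 6.03%). IFNg was highest for 5 (14.3%, against 15.8%), a share near that of all genes. Untreated was highest for 3 (8.57%, against 29.0%).

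Glucose enters macrophages through facilitative transporters of the SLC2A family. Slc2a1 (ENSMUSG00000028645, mm9 chr4:118781315-118811406), the ubiquitous glucose transporter GLUT1, was at 17.3 FPKM untreated, 69.1 after IL4, 93.9 after TGFb1, 156 after IL1b, 301 after IFNg, 332.5 after TNFa, 449 after CpG and 499 after MALP2. IL4, the next above untreated, was 4.005 times the untreated level, and MALP2 was the highest, 27.3-fold above untreated on the FPKM + 1 scale. The bounds of every stimulated library lay apart from the untreated ones, for IL4 as 37.4 to 106 against 8.39 to 27.5 FPKM. The authors' deposited tables called Slc2a1 in all 7 comparisons.

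The other glucose transporters did not share its rise over untreated after every stimulus. Slc2a3, the high-affinity transporter GLUT3, was at 13.6 FPKM untreated, 4.08 after IFNg, 7.33 after CpG, 9.12 after TNFa, 10.5 after MALP2, 15.6 after IL4, 21.9 after TGFb1 and 22.3 after IL1b. It was 2-fold lower after IFNg alone (log2 change -1.51). Slc2a6 (mm9 chr2:26876882-26883518), a family member found on lysosomes of macrophages, went both ways: 91.1 FPKM untreated, 19.2 after IL4, 20.3 after TGFb1, 79.55 after IL1b, 169 after IFNg, 170.5 after TNFa, 196.5 after MALP2 and 209 after CpG. It was the only one of the 34 genes 2-fold lower in some comparisons (IL4 -2.19 and TGFb1 -2.11) and 2-fold higher in others (MALP2 1.10 and CpG 1.19). The bounds were apart for both lower changes and overlapped for both higher ones. Over the stimulated libraries alone, the order of Slc2a6 was that of Slc2a1 with MALP2 and CpG exchanged. Of the summed FPKM of the 3 transporters Slc2a6 held 74.7% untreated, and Slc2a1 held 14.2% untreated and 60.5% to 70.7% in every stimulated library.

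Lactate and protons leave the cell through monocarboxylate transporters. Slc16a3 (mm9 chr11:120809793-120852644), the exporter MCT4 of glycolytic cells, was at 28.0 FPKM untreated, 46.4 after IL4, 130 after TGFb1, 174 after IL1b, 260 after IFNg, 296 after TNFa, 472 after CpG and 512 after MALP2. Its order over the 8 libraries was the same as that of Slc2a1 and of Pfkl and Ldha. IL4 was the only stimulus that left it within 2-fold (log2 change 0.71), and MALP2 brought the largest change, 4.14. The neighbouring Csnk1d, which shares its locus in the deposited tables, ranged only from 108 to 136 FPKM. Slc16a1, the more widely expressed transporter MCT1, was lower throughout, at 2.36 FPKM untreated, 5.19 after IFNg, 6.404 after TGFb1, 6.79 after IL1b, 7.59 after TNFa, 9.61 after MALP2, 12.5 after CpG and 12.7 after IL4. It was at least 2-fold higher after every stimulus but IFNg (0.87), and in contrast to Slc16a3 the IL4 library was its highest.

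**Figure D2:**
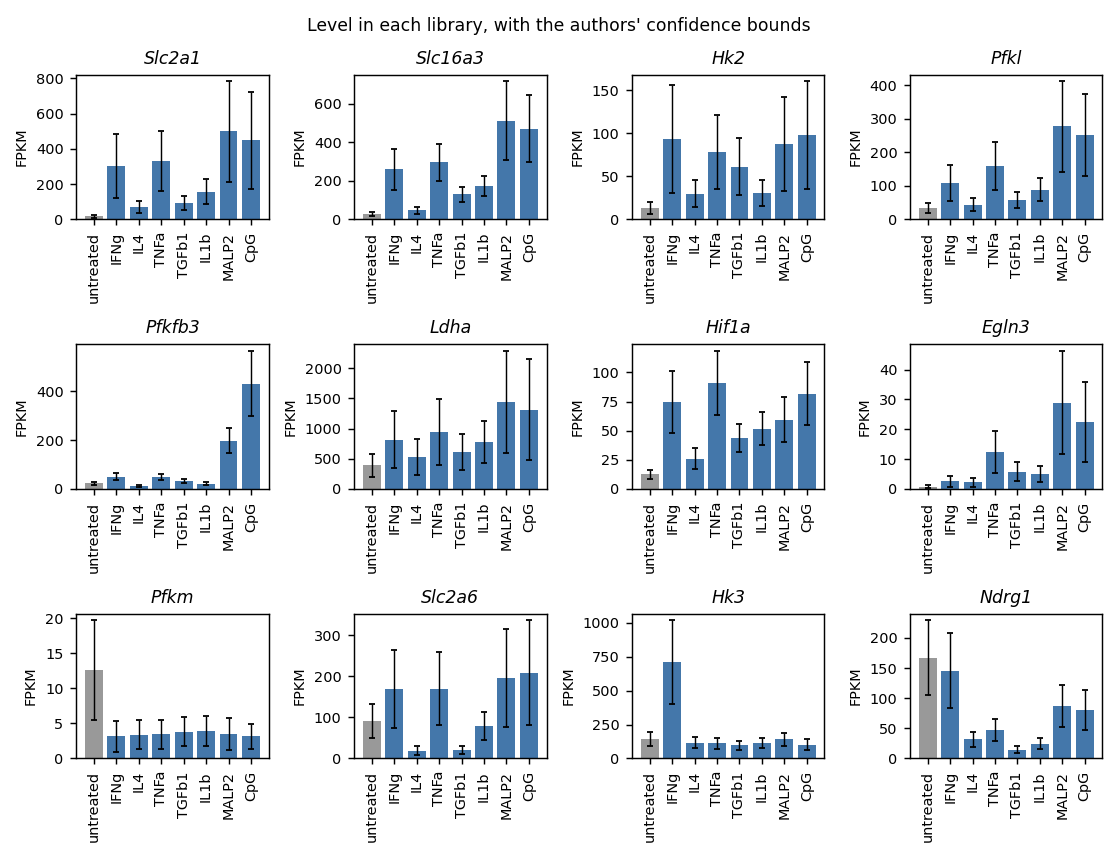
Bars give FPKM (joined scale) of 12 genes in the untreated library (grey) and in the 7 stimulated libraries (blue), 1 library each, and the whiskers are the authors' confidence bounds for that library, not replicate error. Slc2a1 is lowest untreated at 17.3 FPKM and highest after MALP2 at 499, whereas Hk3 stands out after IFNg at 710 FPKM and Ndrg1 is lowest after TGFb1 at 14.3.

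Hexokinases trap glucose in the cell as glucose 6-phosphate. Hk2 (mm9 chr6:82675018-82724448), the inducible hexokinase bound to mitochondria, was at 13.2 FPKM untreated, 30.0 after IL4, 30.5 after IL1b, 61.3 after TGFb1, 78.3 after TNFa, 87.6 after MALP2, 93.5 after IFNg and 97.6 after CpG. It was 2-fold higher after each stimulus, with bounds that overlapped for IL4 and IL1b, the pair not called in the authors' deposited tables. Hk1, the housekeeping hexokinase, was at 75.1 FPKM untreated, 37.4 after IL4, 72.8 after IL1b, 86.25 after TNFa, 96.7 after MALP2, 97.0 after TGFb1, 97.7 after CpG and 187 after IFNg. Its only change past 2-fold was after IFNg (1.303), and IL4 came just short of it on the lower side (-0.99). Both changes were called in the authors' deposited tables, with bounds apart.

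Hk3 (mm9 chr13:55050771-55122746), a hexokinase typical of myeloid cells, was high after IFNg alone. Its levels were 142 FPKM untreated, 95.7 after TGFb1, 101 after CpG, 112 after TNFa, 114 after IL4, 116 after IL1b, 141 after MALP2 and 710 after IFNg. The IFNg library was 5.01 times the next highest, and its bounds (381 to 960 FPKM) lay above those of the untreated library (78.3 to 189 FPKM). The summed FPKM of the 3 hexokinases was 230 untreated, 991 after IFNg and 182 (IL4) to 325 (MALP2) after the others. Within that sum the share of Hk2 was 5.73% untreated and 32.9% after CpG. Stromal markers and the value of 1 read also stood apart in the IFNg library, and their part in these values was not tested.

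Phosphofructokinase, the committed step of glycolysis, is built from liver, platelet and muscle subunits. Pfkl, the liver type, was at 33.8 FPKM untreated, 43.0 after IL4, 57.4 after TGFb1, 87.95 after IL1b, 109 after IFNg, 160 after TNFa, 252 after CpG and 277 after MALP2, and it passed 2-fold after all but IL4 and TGFb1. Pfkp, the platelet type, was at 458 FPKM after IFNg and between 86.55 FPKM (untreated) and 167 FPKM (MALP2) elsewhere. Its change was 2.39 after IFNg and 0.46 to 0.94 after the others. Although under 2-fold there, Pfkp was also called after TNFa, MALP2 and CpG in the authors' deposited tables, with bounds apart. Pitrm1, which shares its deposited locus, was at 14.4 to 21.5 FPKM in all 8 libraries. The muscle type Pfkm was the reverse: it stood at 12.6 FPKM untreated and 3.13 to 3.88 FPKM in all 7 stimulated libraries, log2 changes of -1.71 to -1.48, and all 7 were called in the authors' deposited tables. The untreated library was 3.24 times the next highest, the 7 stimulated ones were nearly level, and the bounds were apart from the untreated ones in the TGFb1, IL1b and CpG comparisons. Thus Pfkp led the subunits untreated (65.1% of summed FPKM) and after IFNg (80.4%), and Pfkl after MALP2 and CpG (61.9% in each).

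The bifunctional Pfkfb enzymes set the level of fructose 2,6-bisphosphate, the strongest activator of phosphofructokinase. Pfkfb3 (mm9 chr2:11393056-11423728), the isoform with the highest kinase activity, had the widest range of the 36 genes, 4.89 on the log2 scale. It was at 23.3 FPKM untreated, 13.6 after IL4, 21.2 after IL1b, 31.2 after TGFb1, 49.8 after TNFa, 50.4 after IFNg, 197.5 after MALP2 and 432 after CpG. The 2 Toll-like receptor ligands stood apart: the bounds after CpG (293 to 555 FPKM) and MALP2 (144 to 244 FPKM) lay above those of the untreated library and the other 5. IL4 was the lowest (log2 change -0.74), a difference called in the authors' deposited table although it is under 2-fold.

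Pfkfb4 had nearly the reverse order. It was at 33.2 FPKM untreated, 17.6 after CpG, 19.4 after IFNg, 21.2 after MALP2, 23.2 after TNFa, 25.3 after IL1b, 26.2 after TGFb1 and 64.6 after IL4. No change reached 2-fold, with 0.94 after IL4 and -0.88 to -0.33 after the other 6. Those after IL4, IFNg and CpG were nonetheless called in the authors' deposited tables. Pfkfb3 held 41.2% of the FPKM of the pair untreated, 17.4% after IL4 and 96.1% after CpG.

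**Figure D3:**
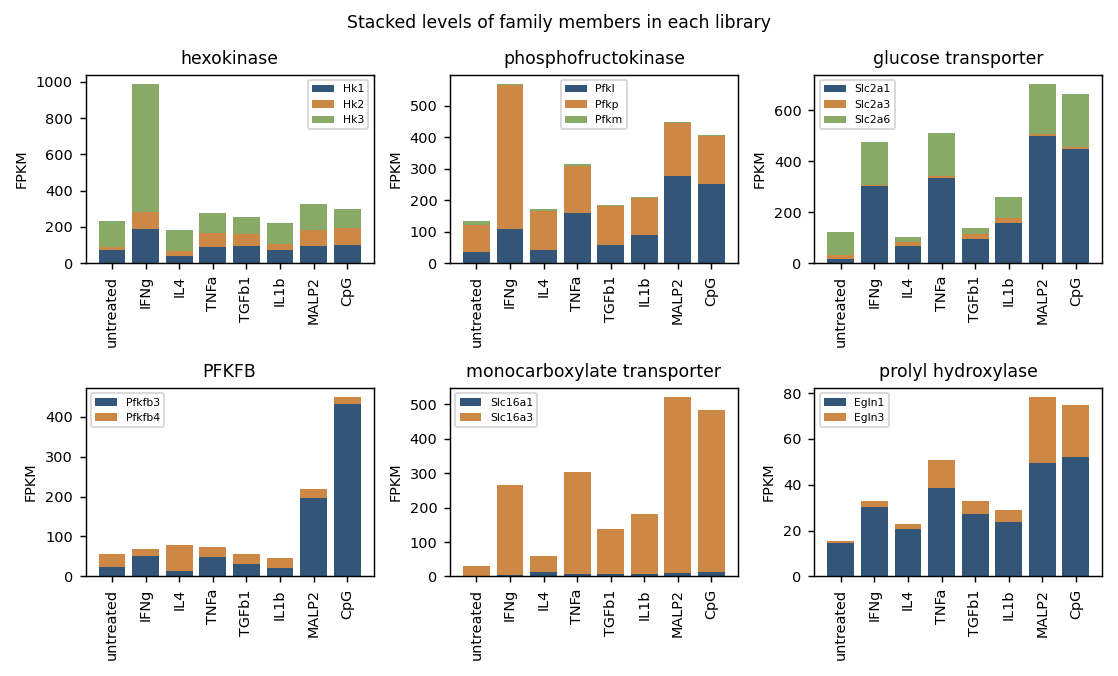
Stacked bars give the FPKM (joined scale) of the members of 6 gene families in the untreated and the 7 stimulated libraries, 1 library each. The leading member changes with the stimulus: Slc2a6 holds 74.7% of the transporter sum untreated and Slc2a1 70.7% after MALP2, Hk3 holds 71.7% of the hexokinases after IFNg, and Pfkfb3 holds 96.1% of the pair after CpG.

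Among the remaining enzymes of upper glycolysis, Tpi1, triosephosphate isomerase, was at 294 FPKM untreated, 212 after IL4, 363 after TGFb1, 515 after IL1b, 630 after TNFa, 760 after IFNg, 1048 after CpG and 1213 after MALP2, and it passed 2-fold after the last 4. Aldoa, the main aldolase, ranged from 367.5 FPKM (IL4) to 1051 FPKM (MALP2) and passed 2-fold after MALP2 only (1.12). Gpi1, glucose phosphate isomerase, ranged from 120 to 246 FPKM and Aldoc, the brain-type aldolase, from 24.9 to 44.5 FPKM. Neither passed 2-fold, and Aldoc was highest untreated and below it after all 7 stimuli (-0.81 to -0.10).

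Lower glycolysis, from glyceraldehyde phosphate to pyruvate, was more even. All 5 of its genes (Gapdh, Pgk1, Pgam1, Eno1 and Pkm) were 2-fold higher after MALP2, 4 after CpG, IFNg and TNFa, 2 after IL1b, 1 after TGFb1 and none after IL4. Eno1, the main enolase, was higher in 6 comparisons (1.07 to 1.84, IL4 0.54) and Pgk1, which makes the first ATP of the pathway, in 5. Pkm (mm9 chr9:59504382-59527182), the pyruvate kinase gene and the most abundant of the 36 genes untreated, was at 777 FPKM untreated, 653 after IL4, 821 after TGFb1, 1081 after IL1b, 1207 after TNFa, 1336 after CpG, 1576 after MALP2 and 1736 after IFNg. It was 2-fold higher after IFNg and MALP2, with overlapping bounds and without a call in the authors' deposited table for either. The gene-level value does not separate its spliced forms.

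Gapdh, often used as a reference gene, ranged from 39.7 FPKM (IL4) to 111 FPKM (MALP2). It was 2-fold higher after TNFa (1.03), MALP2 (1.41) and CpG (1.17), and the MALP2 change was called in the authors' deposited table. Gapdh, Ldha, Aldoa, Tpi1, Pgk1, Pgam1, Eno1, Pkm, Ldhb and Slc2a3 belong to families with many processed pseudogenes, to which reads can be assigned, so their levels are uncertain. With these 10 left out, the higher genes numbered 14 after MALP2, 15 after CpG, 14 after IFNg, 12 after TNFa, 9 after IL1b, 8 after TGFb1 and 6 after IL4. Each count is out of 10 fewer genes than the full one, so part of any fall reflects the smaller set. In the same order, 9.53%, 9.43%, 10.7%, 8.92%, 7.29%, 7.15% and 9.86% of all genes were higher. The summed FPKM of 19 glycolytic enzymes, Ldha and Ldhb included, was 2914 untreated, 2825 after IL4, 3762 after TGFb1, 4416 after IL1b, 5416 after TNFa, 6653 after IFNg, 6964 after CpG and 7726 after MALP2. IL4 thus stood at 0.969 times the untreated sum and MALP2 at 2.65 times.

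At the pyruvate branch, Ldha (mm9 chr7:54096844-54110997), the lactate dehydrogenase subunit that favours lactate formation, was at 390.5 FPKM untreated, 532 after IL4, 603.5 after TGFb1, 775 after IL1b, 813 after IFNg, 944 after TNFa, 1313 after CpG and 1441 after MALP2. It passed 2-fold after the last 4, and the authors' deposited tables called MALP2 and CpG, although the bounds overlapped even there (586 to 2244 against 175 to 592 FPKM for MALP2). Ldhb, the other main subunit, was at 1.74 to 3.04 FPKM in all 8 libraries and passed 2-fold in none. Pdk1 and Pdk3 encode kinases that switch off pyruvate dehydrogenase and so keep pyruvate from the mitochondrial cycle. Pdk1, a known HIF target, was at 25.95 FPKM untreated, 21.2 after IFNg, 25.6 after IL1b, 28.6 after TGFb1, 31.1 after IL4, 33.5 after TNFa, 41.1 after CpG and 48.1 after MALP2, all within 2-fold. Pdk3 was at 6.38 FPKM untreated, 5.32 after CpG, 5.38 after TNFa, 5.44 after IL1b, 5.46 after MALP2, 6.19 after TGFb1, 6.50 after IL4 and 16.3 after IFNg. It was 2-fold higher after IFNg (1.22) and nearly level elsewhere.

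Hif1a (ENSMUSG00000021109, mm9 chr12:75002361-75050772), the oxygen-regulated subunit of HIF-1, was at 12.5 FPKM untreated, 26.1 after IL4, 43.5 after TGFb1, 51.6 after IL1b, 59.4 after MALP2, 74.6 after IFNg, 81.6 after CpG and 90.8 after TNFa. The untreated library was the lowest by 2.09 times, every stimulated library had bounds above the untreated ones, and all 7 changes were called in the authors' deposited tables. The log2 change was 1.01 after IL4 and 1.72 to 2.77 after the others. Unlike most of the genes, Hif1a was highest after TNFa, and the MALP2 library lay below TNFa, CpG and IFNg.

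The Egln genes encode the prolyl hydroxylases that mark HIF subunits for degradation, and both genes here are themselves known HIF targets. Egln3 (mm9 chr12:55279967-55304847) was at 0.709 FPKM untreated, 2.16 after IL4, 2.51 after IFNg, 5.03 after IL1b, 5.79 after TGFb1, 12.5 after TNFa, 22.5 after CpG and 28.9 after MALP2. It was close to the 1 FPKM limit untreated (bounds 0.236 to 1.18 in the TNFa table), and its log2 change was 4.11 after MALP2, 1.01 after IFNg and 0.90 after IL4. Thus IFNg, with one of the higher Hif1a levels, had among the lowest Egln3 levels. Egln1, the main oxygen sensor, was at 14.8 FPKM untreated, 20.8 after IL4, 23.9 after IL1b, 27.3 after TGFb1, 30.3 after IFNg, 38.5 after TNFa, 49.5 after MALP2 and 52.2 after CpG, and passed 2-fold after TNFa, MALP2 and CpG.

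The hypoxia effectors did not share 1 pattern. Ankrd37, an ankyrin repeat gene induced by HIF-1, was at 1.39 FPKM untreated, 5.43 after IL4, 5.57 after IL1b, 6.78 after IFNg, 9.86 after TNFa, 10.5 after TGFb1, 11.5 after MALP2 and 12.6 after CpG. P4ha1, the catalytic subunit of collagen prolyl 4-hydroxylase, ranged from 35.2 FPKM untreated to 126 FPKM after MALP2, with changes of 1.10 (IL4) to 1.81. Both were 2-fold higher in all 7 comparisons and called in all 7 of the authors' deposited tables. P4ha2, the paralogue of P4ha1, was at 5.24 to 9.97 FPKM in 6 libraries and at 17.5 and 18.1 FPKM after CpG and MALP2, where it passed 2-fold.

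Bnip3, which promotes removal of mitochondria in hypoxia, was at 9.05 FPKM untreated, 7.26 after IL4, 14.1 after IL1b, 15.8 after TGFb1, 28.0 after IFNg, 35.7 after TNFa, 50.6 after CpG and 52.2 after MALP2. It passed 2-fold after the last 4, and was under the untreated level after IL4 (-0.28). Adm, the vasodilator adrenomedullin, was below 1 FPKM in 6 libraries, at 1.06 FPKM after MALP2 and 2.22 FPKM after CpG. Vegfa, the angiogenic growth factor, had a failed estimate in the untreated library and in 5 of the 7 stimulated ones, so only its listed values can be given: 30.1 FPKM untreated, 17.0 after IL4, 61.8 after MALP2, 77.9 after IL1b, 83.8 after CpG, 89.2 after IFNg, 99.1 after TGFb1 and 131 after TNFa.

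Ndrg1 (mm9 chr15:66760882-66844601), a stress and differentiation gene induced by hypoxia in many cells, went against the rest. It was at 167 FPKM untreated, 14.3 after TGFb1, 24.3 after IL1b, 31.6 after IL4, 47.4 after TNFa, 80.0 after CpG, 86.4 after MALP2 and 146 after IFNg. It was 2-fold lower in 5 comparisons (TGFb1 -3.46, IL1b -2.73, IL4 -2.37, TNFa -1.80 and CpG -1.05), 4 of them called in the authors' deposited tables and with bounds apart. The CpG change had neither, and MALP2 came just short of 2-fold (-0.94). No library was above the untreated one.

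3 pairs of stimuli share no library with each other, and in them the untreated library plays no part other than in joining the tables. Between MALP2 and CpG, 1 of 35 genes differed 2-fold: Pfkfb3, lower after MALP2 (-1.13). Of all genes 0.723% were higher and 1.18% lower after MALP2, so few genes of any kind differed, and the median difference was 0.12 for the 35 genes and 0.02 for all. Adm (-0.64) and Hif1a (-0.45) came next on the lower side, and Aldoc (0.495) and Hk3 (0.475) led the higher side.

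IFNg and IL4, the agents of classical and alternative activation, differed in more genes: 16 of 34 were higher after IFNg and 3 lower, against 10.9% and 9.53% of all genes. The median difference was 0.88 against -0.07. Slc2a6 (3.07), Hk3 (2.63), Slc16a3 (2.46), Hk1 (2.29), Ndrg1 (2.17) and Slc2a1 (2.11) led, and the 3 lower genes were Slc2a3 (-1.71), Pfkfb4 (-1.69) and Slc16a1 (-1.15). Several genes of the hypoxia response hardly differed, with Egln3 at 0.15, Ankrd37 at 0.28 and P4ha1 at 0.29.

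TNFa was above IL1b for 6 of 34 genes, Hk2 (1.33), Bnip3 (1.28), Pfkfb3 (1.19), Egln3 (1.16), Slc2a6 (1.09) and Slc2a1 (1.08), where 1.69% of all genes were higher. Slc2a3 was lower (-1.20), where 1.25% of all genes were. The median difference was 0.38 for the 34 genes and -0.01 for all genes, whose middle 50% lay between -0.16 and 0.15.

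**Figure D4:**
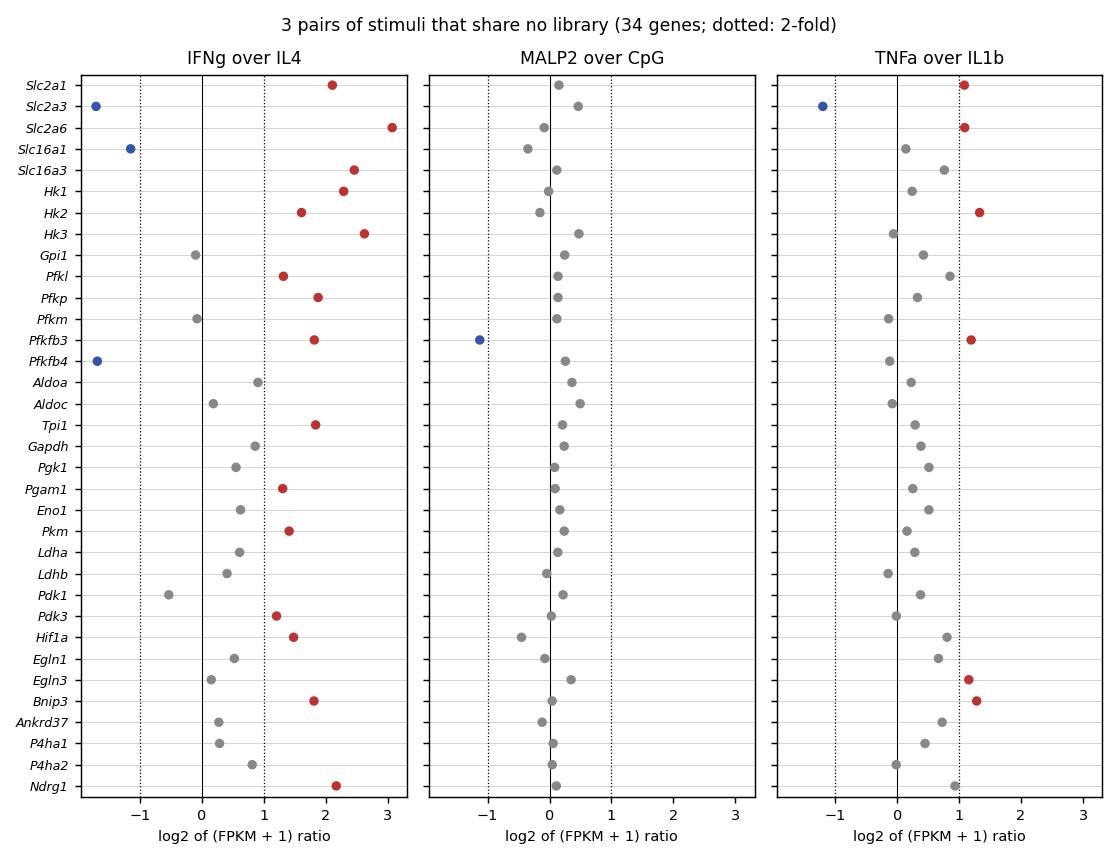
Points give the log2 ratio of (FPKM + 1) between 2 stimulated libraries for 34 genes (rows) in 3 pairs that share no library; red points are at least 2-fold higher, blue at least 2-fold lower and grey within 2-fold. 16 genes are higher after IFNg than after IL4, Pfkfb3 alone differs between MALP2 and CpG, and 6 genes are higher after TNFa than after IL1b.

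When each stimulus was set against the median of the other 6 stimulated libraries, IL4 had the most lower genes and the Toll-like receptor ligands the most higher ones. Lower genes also exceeded the share of all genes after IL1b (6 of 34, against 1.12%) and TGFb1 (5 of 34, against 4.03%). After IL4, 13 of 34 genes were lower (all genes 5.87%), led by Slc2a6 (-3.08), Slc16a3 (-2.56), Slc2a1 (-2.18) and Bnip3 (-1.99), and 1 was higher, Pfkfb4 (all genes 4.88%). The median was -0.82 against 0.03 for all genes. MALP2 had 9 of 35 higher and none lower (3.24% and 1.5%), with Pfkfb3 (2.26), Egln3 (2.22) and Pfkl (1.48) in front. CpG had 7 of 35 higher and none lower (3.65% and 0.837%), with Pfkfb3 (3.38) and Egln3 (1.87) in front. The higher genes of CpG include Adm (1.31), which reached 1 FPKM only after MALP2 and CpG. Ndrg1 counts as higher for MALP2 (1.11) and CpG (1.00), although it was below its untreated level after both (-0.94 and -1.05).

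IFNg had 5 of 34 higher and 2 lower (all genes 7.72% and 3.5%), and its median of 0.04 was close to 0. The higher genes were Hk3 (2.64), Ndrg1 (1.86), Pfkp (1.73), Pdk3 (1.43) and Hk1 (1.02), and the lower ones Egln3 (-1.53) and Slc2a3 (-1.47). Of the higher genes, Ndrg1 was not above its untreated level after IFNg (-0.20). The stromal sum and the worth of 1 read, both highest in the IFNg library, were not tested for their part in these values. TNFa had Egln3 higher (1.07) and none lower (1.6% and 0.837%).

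TGFb1 had 5 of 34 lower and 1 higher (all genes 4.03% and 3.54%), and IL1b 6 lower and 1 higher (1.12% and 1.24%). Slc2a6 (-3.00), Ndrg1 (-2.08) and Slc2a1 (-1.74) were lowest after TGFb1, and Hk2 (-1.41), Ndrg1 (-1.35) and Pfkfb3 (-1.20) after IL1b. Slc2a3 was the higher gene of both, at 1.08 and 1.11. With the IFNg library, the shallowest, left out of the reference, TNFa had 3 higher genes and TGFb1 none. The share of all genes under that reduced reference was not computed, so these counts have no comparison.

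**Figure D5:**
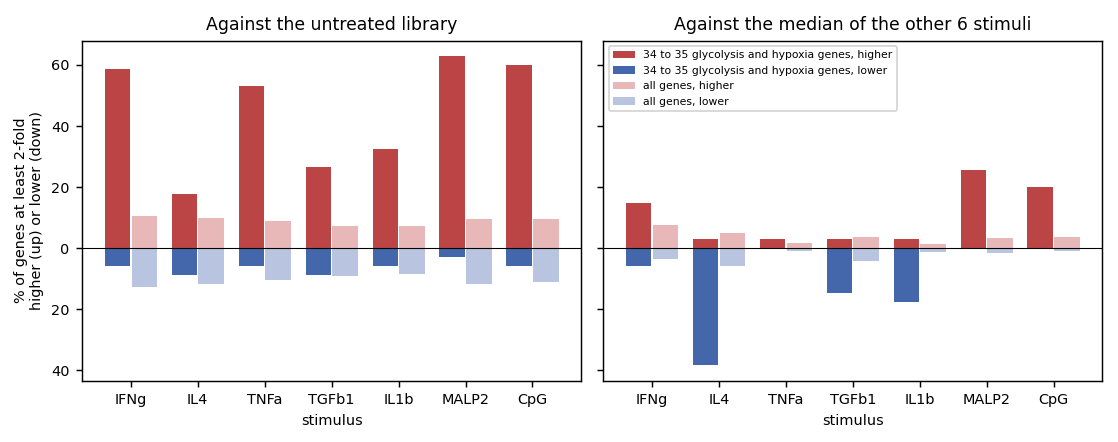
Bars give the percent of measured genes at least 2-fold higher (up) or lower (down), for the 34 to 35 glycolysis and hypoxia genes (dark) and for all genes (pale), against the untreated library (left) and against the median of the other 6 stimulated libraries (right). The dark bars pass the pale ones on the higher side for all 7 stimuli on the left, from 6 of 34 genes after IL4 to 22 of 35 after MALP2, and on the right IL4 has 13 of 34 lower.

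Other genes of hexose metabolism, a list of 39 symbols outside the 36 genes, had more lower than higher members. None was 2-fold higher after IFNg (of 25), IL4 (of 26) or TGFb1 (of 26), where 10.7%, 9.86% and 7.15% of all genes were. After TNFa 4 of 25 were higher, after MALP2 and CpG 3 of 25 each and after IL1b 1 of 25, where 8.92%, 9.53%, 9.43% and 7.29% of all genes were. Lower than untreated were 8 of 25 after TNFa (all genes 10.4%), 7 of 25 after IFNg (12.7%) and CpG (11.2%), 7 of 26 after IL4 (11.9%), 6 of 25 after MALP2 (11.7%) and IL1b (8.57%) and 5 of 26 after TGFb1 (9.15%). Gys1, a glycogen synthase, and Pgm1, a phosphoglucomutase, were higher after TNFa (1.36 and 1.08), MALP2 (2.31 and 1.56) and CpG (2.17 and 1.48). Pdk2, a pyruvate dehydrogenase kinase, was 2-fold lower in all 7 comparisons (-2.54 to -1.27), as was Slc2a8, an intracellular hexose transporter (-1.86 to -1.33). Pdp1, a phosphatase that switches pyruvate dehydrogenase back on, was lower in 6 (-2.23 to -1.25, IFNg -0.92).

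Of the 10 pentose phosphate genes measured, H6pd, the hexose 6-phosphate dehydrogenase of the endoplasmic reticulum, was the only one 2-fold higher after TNFa, TGFb1, IL1b, MALP2 and CpG (1.25 to 1.96). That is 1 of 10, near the 7.15% (TGFb1) to 9.53% (MALP2) of all genes that were higher after these stimuli. After IL4, Prps1, which makes the nucleotide precursor PRPP, was higher (64.1 against 6.23 FPKM, 3.18) and G6pdx, the entry enzyme of the pathway, lower (-1.06). Of all genes 9.86% were higher and 11.9% lower after IL4. None of the 10 passed 2-fold after IFNg, where 10.7% of all genes were higher and 12.7% lower.

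Among 47 further symbols of the HIF pathway and hypoxia response, of which 46 were found, 35 to 37 were measured. 2-fold higher were 15 of 36 after MALP2 (all genes 9.53%), 15 of 37 after CpG (9.43%), 11 of 36 after TNFa (8.92%), 9 of 35 after IFNg (10.7%), 7 of 36 after TGFb1 (7.15%), 6 of 37 after IL4 (9.86%) and 6 of 36 after IL1b (7.29%). Between 2 and 5 were lower, at most 5 of 35 after IFNg (all genes 12.7%) and 5 of 37 after IL4 (11.9%), near the shares of all genes. Some of the higher genes were below 1 FPKM untreated: Nos2 (0.054), Pgf (0.148), Ak4 (0.618), Gpr35 (0.725) and Rcor2 (0.882). They enter these counts only through a stimulated library and could not count as lower. Ak4, a mitochondrial adenylate kinase, was at 0.618 FPKM untreated and 34.1 FPKM after CpG, and was higher in all 5 comparisons in which its estimate was OK, that is all but IFNg and IL1b (1.07 to 4.42). Jmjd6, an oxygenase of the nucleus, was higher in 5 (1.05 to 2.24). Nos2, the inducible nitric oxide synthase and also an immune gene, was at 0.054 FPKM untreated, 48.8 after IFNg, 41.7 after MALP2 and 123 after CpG. Epas1, which encodes the HIF-2 subunit, stayed at or below 2.02 FPKM in every library, and Arnt, the partner of Hif1a, at 23.1 to 26.9 FPKM. Vegfb, the relative of Vegfa, was lower in all 7 comparisons (-1.67 to -1.29).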

How the data were processed

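Poly(A) RNA-seq of 8 libraries was used, 1 per group by the labels. The submitters' processing notes name TopHat 1.3.1, Cufflinks 1.2.1, Cuffdiff 1.2.1 and the mm9 build. Whether counting used strand is not given in the sources used here, and reads of overlapping or antisense genes may therefore be mixed. For each stimulus the authors deposited FPKM values and their confidence limits, for that library and the untreated one. The q-value and the call of each gene came from the authors' deposited table of the same comparison, whose calls reach a q-value of 0.05. FPKM is relative to a measure of library size, and the untreated columns show that this measure depended on the table. Very abundant transcripts in one library may depress the rest. In each comparison 336 to 388 of 36806 gene lines had a status other than OK and were left out.

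Symbols were found for 31840 gene identifiers through GENCODE names; 13 of the 36 genes share a deposited locus with another gene. Changes were computed with a pseudocount of 1 FPKM, a floor of 1 FPKM in either library and a threshold of 2-fold; folds on this scale understate changes of low genes. With 1 library per group there is no test, and absolute depth is unknown. Genes with all 8 values printed are the 14 of widest range, any gene changed in both directions, the most abundant one untreated, and the transporters, hexokinases, Pfkfb, Pdk, Hif1a, Egln, Vegfa and Ldha genes. The genes and lists were chosen with earlier results of these data known. Alternatives were another pseudocount (0.1 FPKM), a floor of 5 FPKM or none, centring, the authors' call, bounds apart, leaving out genes prone to pseudogene reads, and the other 6 stimulated libraries as reference. The rules were tested on simulated data. Promoter windows came from RefSeq (GRCm38.p6). Python 3.11.15, numpy 2.4.6, pandas 2.3.3 and matplotlib 3.10.9 were used.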

Additional observations from a re-analysis of the deposited data

How the results depend on the processing

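Each count and median was recomputed under the alternatives, and 176 of 208 values kept their direction with counts within 1.5 times and median fold changes within a factor of 1.5 before taking logs, among them every value with a pseudocount of 0.1 FPKM, a floor of 5 FPKM and no floor. Where the authors' bounds had to be apart, the higher genes were 13 of 34 for IFNg (20 at 2-fold) and 14 of 35 for MALP2 (22). The lower ones were then 1 for IFNg, 1 for TNFa, 1 for CpG and 0 for MALP2. The share of all genes under that rule was not computed, so these counts cannot be read as particular to these genes. The authors' call and centring on the median gene each left 1 lower gene for CpG. Without the genes prone to pseudogene reads, and so in a smaller set, 14 were higher for MALP2 and 1 lower for IFNg. When the other 6 stimuli, by their median, replaced the untreated library, the higher genes numbered 5 (IFNg), 1 (IL4), 1 (TNFa), 1 (TGFb1), 1 (IL1b), 9 (MALP2) and 7 (CpG), and the lower ones 13 (IL4), 0 (TNFa), 5 (TGFb1), 6 (IL1b), 0 (MALP2) and 0 (CpG). The median changes became 0.037 (IFNg), 0.17 (TNFa), 0.63 (MALP2) and 0.52 (CpG), and turned negative for IL4 (-0.82), TGFb1 (-0.41) and IL1b (-0.33); that reference asks another question, since it holds stimulated libraries only. Within that factor, the IL4 median (0.14) was 0.24 when centred and 0.295 without the genes prone to pseudogene reads, which also brought the IL1b median from 0.62 to 0.38. Leaving the IFNg library out of the reference of stimulated libraries was an alternative chosen after seeing the data, with no share of all genes computed. It gave 3 higher genes for TNFa and 0 for TGFb1, and a TNFa median of 0.275. The cause of these shifts was not tested. No paired analysis was possible because each group has 1 library. The tables carry no counts, so the only intervals are the authors' bounds, and the IFNg library is the least precise.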

Other observations

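Slc2a1 shares its deposited locus with the microRNA gene Mir1957a, which was listed at 702 FPKM in the TNFa library and at 0 in the other 7, with no such difference between the TNFa library and its neighbours in Slc2a1 itself (332.5 FPKM after TNFa, 301 after IFNg). Spsb2, which shares the locus of Tpi1, was at 41.7 FPKM untreated and 16.8 to 22.8 FPKM in the stimulated libraries, opposite in direction to Tpi1 after IFNg, TNFa, MALP2 and CpG. Senp1, in the locus of Pfkm, ranged from 5.46 FPKM untreated to 7.87 FPKM (IFNg). Nampt, an enzyme of NAD salvage from the list of further hypoxia genes, stood at 259 FPKM in the IFNg library, 25.04 untreated and between 21.03 and 33.2 in the rest. Bhlhe40, a transcription repressor induced by hypoxia in many cells, was highest after IL4 at 126 FPKM, followed by TNFa at 69.9 and TGFb1 at 54.2, all 3 at least 2-fold above the untreated 23.0, and was at 19.8 to 31.9 FPKM in the other 4.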
